A study of Mus musculus with 15 samples.

Results

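The 34 genes described here encode enzymes and regulators of cholesterol and fatty acid synthesis. They were taken by gene symbol from a list of names that was drawn up with earlier results of these data known. All 34 were present among the 52327 named genes of the count table, and all 34 passed the filter of at least 10 counts in at least 3 libraries, which 13199 genes passed. They comprised 8 enzymes of the steps up to squalene, 10 enzymes of the steps between squalene and cholesterol, 6 regulators and carriers of sterols, 4 enzymes of fatty acid synthesis and 6 desaturases and elongases.

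Strand-specific mRNA libraries were sequenced from HoxB, a mouse cell line whose cell type the labels give as blood. The study asked whether the order in which a leukaemia fusion and a receptor mutation are acquired matters. RUNX1-ETO_FIRST cells and CSF3R_FIRST cells carried the same 2 alleles, RUNX1-ETO and CSF3R-T618I, and were named for the allele that came first. RUNX1-ETO_ONLY cells carried the fusion alone, CSF3R_ONLY cells carried the receptor mutation alone, and EMPTY cells were the controls with neither. RUNX1-ETO joins a DNA-binding transcription factor to a corepressor-recruiting protein, and CSF3R-T618I is an activating form of the receptor for granulocyte colony-stimulating factor. Each of the 5 groups had 3 libraries of 1 cell line, and the sources used here name no vector, promoter or clone. Whether replicates came from separate cultures is unknown from the labels, so p-values measure only how these samples varied, possibly for technical reasons.

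Total counts ranged over 17007437 to 18178292 per library. Runx1t1, which the fusion contains, averaged 494, 712 and 448 CPM (normalised read count, scaled for library size) in RUNX1-ETO_FIRST, CSF3R_FIRST and RUNX1-ETO_ONLY, and had no counts in CSF3R_ONLY or EMPTY. Csf3r, the mouse gene of the receptor, averaged 419, 398, 525 and 622 CPM in RUNX1-ETO_FIRST, CSF3R_FIRST, RUNX1-ETO_ONLY and CSF3R_ONLY and 420 CPM in EMPTY, and the libraries of both double groups overlapped with EMPTY. The sources used here do not say from which species the receptor sequence was taken or whether its reads are counted as Csf3r. Csf3r was above EMPTY in CSF3R_ONLY, but also in RUNX1-ETO_ONLY, which carries no receptor allele. There the libraries held 507, 536 and 531 CPM, against 422, 465 and 373 in EMPTY. Csf3r therefore does not check the receptor allele in the double groups or in CSF3R_ONLY. All 8 markers of blood cell identity were above 0 in every library. The stromal markers Col1a2, Col3a1, Dcn and Lum and the adipocyte markers Plin1, Fabp4 and Lep were at 0 in all 5 groups; the 6 stromal markers together held at most 1.33 CPM and the 7 adipocyte and hepatocyte markers at most 2.88 CPM. Other marker lists moved with the groups. The 7 mast cell markers summed to 15200 to 18400 CPM in RUNX1-ETO_FIRST, 27100 to 31500 in CSF3R_FIRST, 11600 to 12700 in RUNX1-ETO_ONLY, 3240 to 3280 in CSF3R_ONLY and 1590 to 2040 in EMPTY. The 10 markers of dividing cells summed to 2370 to 2610, 1820 to 1950, 2770 to 3040, 3430 to 3540 and 2710 to 3070 CPM in the same order of groups. Their part in the results below was not tested, and in bulk RNA a change in the make-up of the cells and a change of RNA per cell cannot be told apart. In 4 of the groups 1 library held fewer reads of long transcripts than its partners, namely RUNX1-ETO_FIRST replicate 1, CSF3R_FIRST replicate 3, RUNX1-ETO_ONLY replicate 3 and EMPTY replicate 3, with correlations of −0.596, −0.525, −0.617 and −0.647 across 8638 genes between exon length and deviation from the group mean. The median exon length was 4839 bases in the 34 genes and 4132.5 bases in tested genes with a length, and counts of called genes are therefore also given without these 4 libraries, called length-biased from here on.

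Cells build cholesterol from acetyl-CoA through mevalonate and squalene, and fatty acids from the same acetyl-CoA through malonyl-CoA. When sterols in the endoplasmic reticulum are scarce, Scap escorts the membrane-bound precursors of the Srebf1 and Srebf2 transcription factors to the Golgi, where they are cut and released to activate genes of both pathways; the Insig proteins hold Scap back when sterols are plentiful. Dividing blood cells use both pathways to make membranes, and statins, which block the pathway at HMG-CoA reductase, have long been studied in leukaemia.

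Per kilobase of annotated exon, Scd2, a stearoyl-CoA desaturase, was the most abundant of the 34 transcripts, at 270.3 CPM per kb averaged over the 5 group means. It was followed by Fads2, a desaturase of polyunsaturated fatty acids, at 113.1 CPM per kb, and by the fatty acid synthase Fasn and the citrate-cleaving enzyme Acly at 76.96 and 71.62 CPM per kb. Srebf2, the main activator of sterol synthesis, stood at 64.72 CPM per kb and Srebf1, more closely tied to fatty acid synthesis, at 44.99. Among the sterol enzymes the order differed between groups: Hmgcs1 had the highest group mean per kb in RUNX1-ETO_FIRST and CSF3R_FIRST, at 45.27 and 55.71 CPM per kb, Cyp51 in RUNX1-ETO_ONLY at 22.89, and Nsdhl in CSF3R_ONLY and EMPTY at 39.28 and 28.79. Fdps, the farnesyl diphosphate synthase, was lowest at 2.133 CPM per kb, with 61 to 265 counts per library, and 26.7% of its exon bases lie within Gm43738 on the same strand. The counts of several genes are uncertain because the sources used here do not say how shared reads were handled. Acat2 aligns to Acat3 at 97.7% identity over 1477 bases, Fdft1 shares 774 exon bases with Ctsb on the other strand, Scd2 aligns to Scd1 at 95.6% over 620 bases, and Idi1, Elovl6 and Acaca have near-identical gene models elsewhere in the genome. Tm7sf2 shares 532 exon bases (12.1% of its own) with Vps51 on the same strand. Hmgcs1 shares 557 (12.1%) with Gm48342 on the other strand.

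The bases before the transcription starts of the genes were searched for letters that the pathway's regulators are known to recognise. RefSeq promoter windows on GRCm38.p6, 250 bases before to 50 bases after the start, were matched for 27 of the 34 genes. Some genes had several windows, with 35 in all for the 27 genes. A gene was counted if any of its windows held the motif, so genes with more windows had more chances to count. On either strand, the CCAAT box bound by NF-Y, a known partner of the Srebf factors, was found for 22 of the 27 genes (81.5%). It was found for 41.1% of all 27025 genes with a window. Of the 15 sterol enzymes with a window, 14 held it. The GC box GGGCGG was also found for 22 of the 27 genes (81.5%) against 38.2% of all genes with a window. The sterol regulatory element TCACNCCAC occurred for 1 gene, Hmgcs1 (3.7% against 1.44%), and its shorter core CACNCCAC for Acat2, Hmgcs1 and Insig1 (11.1% against 7.12%). These motifs can overlap one another, and a match describes letters in a window, not a bound site. Up to 250 bases upstream are shown for 3 sterol enzymes and a regulator that were higher in both double groups or in one of them than in EMPTY, and for Elovl6, a fatty acid elongase whose pattern across the groups was different. Each stretch ends before both the RefSeq start and the first base of the GENCODE gene model, which for Lss, Insig1 and Elovl6 lies upstream of the RefSeq one. They lie on the plus strand at chr13:119690101-119690350 (Hmgcs1), chr5:114444019-114444268 (Mvk), chr10:76531355-76531587 (Lss), chr5:28071162-28071362 (Insig1) and chr3:129532136-129532354 (Elovl6), and are printed in the direction of transcription with CCAAT boxes of either strand and CACNCCAC cores in capitals.
Hmgcs1: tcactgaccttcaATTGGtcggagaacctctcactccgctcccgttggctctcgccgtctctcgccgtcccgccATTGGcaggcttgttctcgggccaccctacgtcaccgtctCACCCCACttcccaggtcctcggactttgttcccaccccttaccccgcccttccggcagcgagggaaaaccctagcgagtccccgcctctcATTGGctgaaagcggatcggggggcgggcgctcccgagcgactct
Mvk: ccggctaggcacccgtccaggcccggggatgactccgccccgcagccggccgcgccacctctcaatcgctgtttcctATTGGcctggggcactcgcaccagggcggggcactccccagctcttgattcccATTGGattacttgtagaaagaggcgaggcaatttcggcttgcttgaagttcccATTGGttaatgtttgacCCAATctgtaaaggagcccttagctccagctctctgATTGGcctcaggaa
Lss: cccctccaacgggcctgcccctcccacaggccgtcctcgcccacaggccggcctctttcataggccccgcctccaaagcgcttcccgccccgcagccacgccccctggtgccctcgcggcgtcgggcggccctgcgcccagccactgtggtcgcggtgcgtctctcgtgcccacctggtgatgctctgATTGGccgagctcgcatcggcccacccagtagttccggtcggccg
Insig1: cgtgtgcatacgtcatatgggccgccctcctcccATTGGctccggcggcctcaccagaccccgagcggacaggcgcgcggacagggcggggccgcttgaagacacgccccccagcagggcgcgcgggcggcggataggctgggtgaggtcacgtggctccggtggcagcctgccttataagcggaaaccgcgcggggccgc
Elovl6: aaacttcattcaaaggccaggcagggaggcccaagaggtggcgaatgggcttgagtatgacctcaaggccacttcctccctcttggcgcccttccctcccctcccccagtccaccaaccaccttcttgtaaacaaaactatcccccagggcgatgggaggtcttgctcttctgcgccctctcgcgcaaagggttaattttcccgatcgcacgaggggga
Hmgcs1 held 3 CCAAT boxes and 1 core, Mvk held 5 boxes, Lss and Insig1 held 1 box each, and Elovl6 held neither; the core of Insig1 lies past the start of its GENCODE model and is not printed.

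Of the 18 enzymes from Acat2 to Dhcr7, the group with the highest mean CPM was CSF3R_FIRST for 16 and CSF3R_ONLY for 2, and the group with the lowest mean was RUNX1-ETO_ONLY for 14 and EMPTY for 4. In the other 16 genes the highest mean was in RUNX1-ETO_FIRST for 6, CSF3R_FIRST for 4, CSF3R_ONLY for 4, RUNX1-ETO_ONLY for 1 and EMPTY for 1. As the median over the 18 sterol enzymes of the log2 CPM difference from the EMPTY mean, single libraries lay at 0.511 to 0.634 in RUNX1-ETO_FIRST, 0.793 to 0.882 in CSF3R_FIRST, −0.201 to −0.143 in RUNX1-ETO_ONLY, 0.603 to 0.635 in CSF3R_ONLY and −0.0514 to 0.105 in EMPTY. The ranges of CSF3R_FIRST and RUNX1-ETO_ONLY overlapped with no other group.

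**Figure D1:**
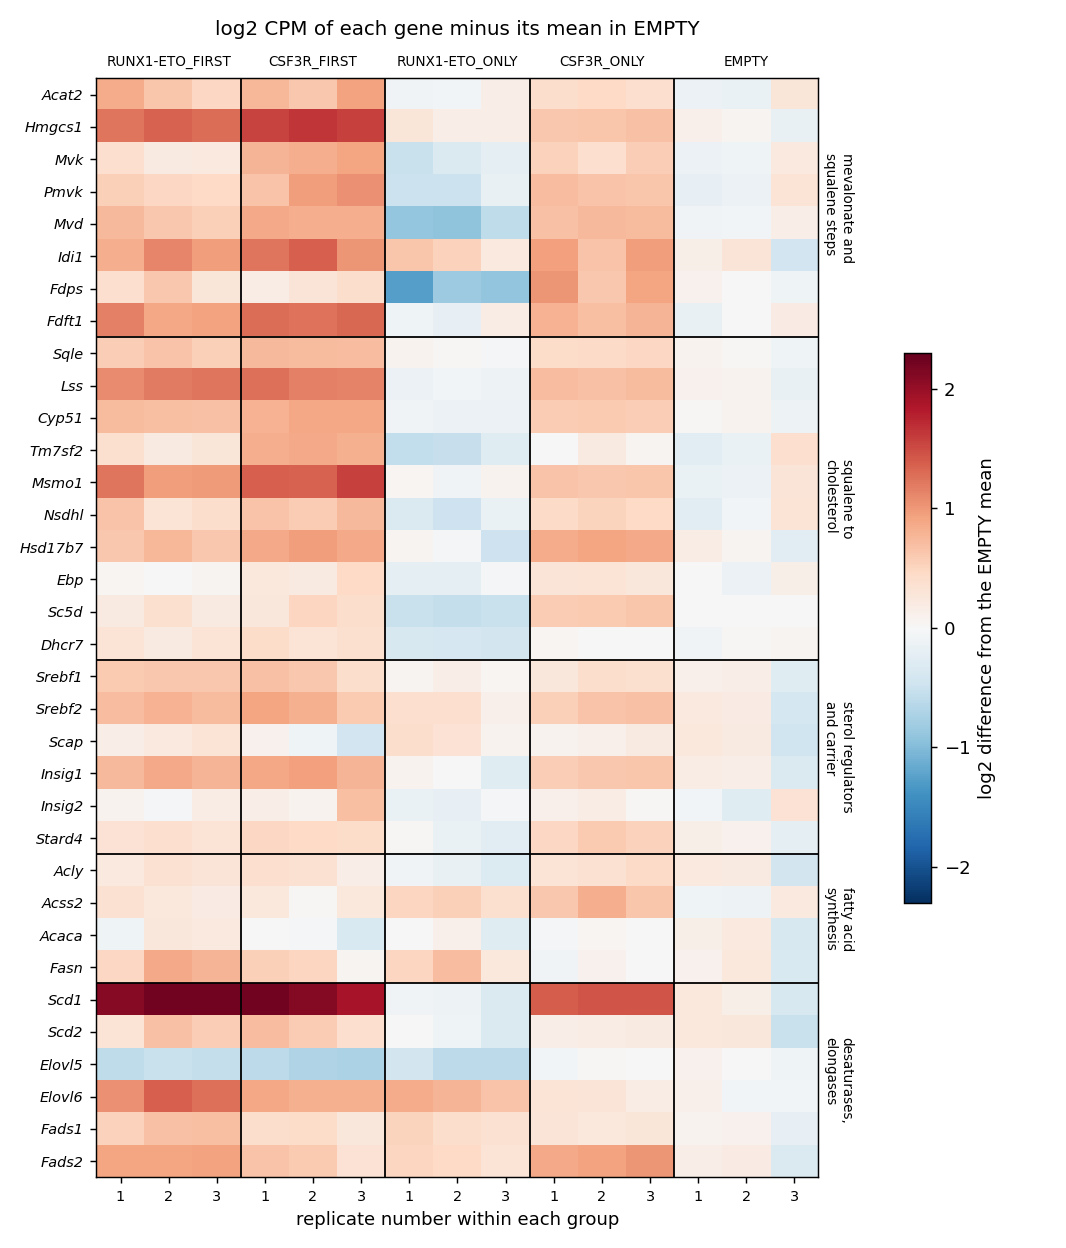
Heat map of the log2 CPM of each of the 34 genes (rows, grouped by role) in each of the 15 libraries (columns, numbered by replicate), minus the mean of the gene in EMPTY; red is higher and blue lower. The sterol enzymes in the upper 2 blocks are red in the receptor and double groups and mostly pale or blue in RUNX1-ETO_ONLY, where the median library value was −0.201 to −0.143.

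The receptor mutation alone was compared with EMPTY to see what CSF3R-T618I does without the fusion. In CSF3R_ONLY, 25 of the 34 genes rose and none fell, whereas 32.9% of all tested genes were called, with 19.9% of all tested genes higher and 13% lower. The median log2 change of the 34 was 0.506, against 0 for all tested genes. Libraries of the compared groups did not overlap for 26 of the 34 genes and for 44.7% of all tested genes. All 8 enzymes up to squalene rose, as did 8 of the 10 enzymes after it; Tm7sf2, a sterol reductase, and Dhcr7, the reductase of the last step, were not past the threshold (log2 0.07, SE 0.14, adjusted p = 0.757; and log2 0.02, SE 0.06, adjusted p = 0.813). All tests across genes are edgeR's quasi-likelihood F tests, two-sided, adjusted by Benjamini and Hochberg over 13199 genes and called at 0.05, and SE is on the log2 scale.

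Scd1, which makes monounsaturated fatty acids, changed most. Scd1 measured 248, 271 and 273 in RUNX1-ETO_FIRST, 272, 253 and 218 in CSF3R_FIRST, 55.2, 53.6 and 46.1 in RUNX1-ETO_ONLY, 153, 159 and 159.55 in CSF3R_ONLY, and 68.9, 64.04 and 44.96 CPM in EMPTY. All 3 CSF3R_ONLY libraries lay above all 3 EMPTY libraries, and the rise was 2.65-fold (log2 1.41, SE 0.13, adjusted p = 4.15e-07). Fads2 measured 460.47, 458 and 463 in RUNX1-ETO_FIRST, 388, 373 and 307 in CSF3R_FIRST, 346, 338 and 304 in RUNX1-ETO_ONLY, 449, 466 and 495 in CSF3R_ONLY, and 271, 279 and 195 CPM in EMPTY. It was 1.89-fold higher in CSF3R_ONLY than in EMPTY (log2 0.92, SE 0.12, adjusted p = 1.72e-05), with EMPTY replicate 3 the lowest of all 15 libraries. Hsd17b7, a ketosteroid reductase of the sterol pathway (chromosome 1, 169949535 to 169969241, minus strand, mm10), measured 23.6, 26.2 and 23.6 in RUNX1-ETO_FIRST, 28.1, 29.9 and 28.1 in CSF3R_FIRST, 16.003, 14.8 and 11.01 in RUNX1-ETO_ONLY, 27.7, 29.1 and 28.2 in CSF3R_ONLY, and 17.4, 16.1 and 12.9 CPM in EMPTY. Its CSF3R_ONLY libraries all lay above those of EMPTY, a 1.83-fold rise (log2 0.87, SE 0.13, adjusted p = 5.89e-05). Fdps, which makes farnesyl diphosphate for sterols and for protein prenylation, measured 9.98, 11.8 and 9.25 in RUNX1-ETO_FIRST, 8.54, 9.39 and 10.1 in CSF3R_FIRST, 3.11, 4.21 and 3.98 in RUNX1-ETO_ONLY, 15.5, 11.7 and 14.3 in CSF3R_ONLY, and 8.1, 7.66 and 7.07 CPM in EMPTY. CSF3R_ONLY was the highest group and RUNX1-ETO_ONLY the lowest, and Fdps was 1.81-fold higher in CSF3R_ONLY than in EMPTY (log2 0.86, SE 0.14, adjusted p = 0.00017).

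Among the regulators, Srebf2, Srebf1, Insig1 and the sterol carrier Stard4 rose with the receptor alone. Srebf2 measured 529, 559 and 534 in RUNX1-ETO_FIRST, 605, 573 and 490.46 in CSF3R_FIRST, 421, 421 and 352 in RUNX1-ETO_ONLY, 475, 509 and 517 in CSF3R_ONLY, and 377, 368 and 243 CPM in EMPTY. It was 1.52-fold higher in CSF3R_ONLY (log2 0.60, SE 0.14, adjusted p = 0.00264), and EMPTY replicate 3 lay well under the other EMPTY libraries. Srebf1 measured 302, 306 and 308 in RUNX1-ETO_FIRST, 318, 308 and 264 in CSF3R_FIRST, 208, 222 and 205 in RUNX1-ETO_ONLY, 238, 263 and 256 in CSF3R_ONLY, and 217, 222 and 164 CPM in EMPTY. Its CSF3R_ONLY libraries lay above those of EMPTY without overlap, by a smaller margin (log2 0.33, SE 0.10, adjusted p = 0.0226). Insig1, itself a target of the Srebf factors, measured 163, 178 and 167 in RUNX1-ETO_FIRST, 180.05, 188 and 169 in CSF3R_FIRST, 103, 96.98 and 80.4 in RUNX1-ETO_ONLY, 144, 151 and 152 in CSF3R_ONLY, and 110.04, 109 and 77.6 CPM in EMPTY. Insig1 was 1.51-fold higher in CSF3R_ONLY (log2 0.59, SE 0.12, adjusted p = 0.000969). Its paralog Insig2, by contrast, measured 11.1, 10.2 and 11.7 in RUNX1-ETO_FIRST, 11.6, 11.04 and 16.9 in CSF3R_FIRST, 9.33, 9.19 and 10.3 in RUNX1-ETO_ONLY, 11.4, 11.7 and 10.7 in CSF3R_ONLY, and 10.03, 8.61 and 13.2 CPM in EMPTY. For Insig2, EMPTY overlapped with every other group while RUNX1-ETO_ONLY lay below CSF3R_ONLY and CSF3R_FIRST. None of its 9 tests passed the threshold, and in CSF3R_ONLY against EMPTY the adjusted p was 0.737. Scap also passed in none of its 9, and Stard4 rose by 0.52 on the log2 scale in CSF3R_ONLY (adjusted p = 0.000327).

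Of the 4 fatty acid synthesis enzymes, Acss2 alone passed with the receptor alone. Acly, Acaca, which makes malonyl-CoA, and Fasn had log2 changes of 0.34, −0.02 and −0.02 (adjusted p = 0.0638, 0.939 and 0.948), while Acss2, which makes acetyl-CoA from acetate, was 1.62-fold higher (log2 0.70, SE 0.11, adjusted p = 9.5e-05). Of the desaturases and elongases, Scd1, Fads2, Fads1 and Elovl6 rose. Scd2 and Elovl5 were not past the threshold (adjusted p = 0.577 and 0.901). Alongside, the 7 neutrophil markers summed to 6220 to 6710 CPM in CSF3R_ONLY and 768 to 1290 CPM in EMPTY, and all 7 rose; 2 of the 10 markers of dividing cells rose and none fell. Without the 4 length-biased libraries, 27 genes rose and 2 fell. Acly and Tm7sf2 then newly rose (log2 0.14 and 0.27, adjusted p = 0.0233 and 0.0438). The 2 that fell were Acaca and Fasn (log2 −0.20 and −0.19, adjusted p = 0.00144 and 0.017). Leaving out 1 library gave 21 to 24 calls and ended those of Acat2, Nsdhl, Ebp, Srebf1, Elovl6 and Fads1, with adjusted p up to 0.0775, 0.0567, 0.0821, 0.0933, 0.117 and 0.128; each of the 3 CSF3R_ONLY and the 3 EMPTY libraries ended at least 1 of them.

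**Figure D2:**
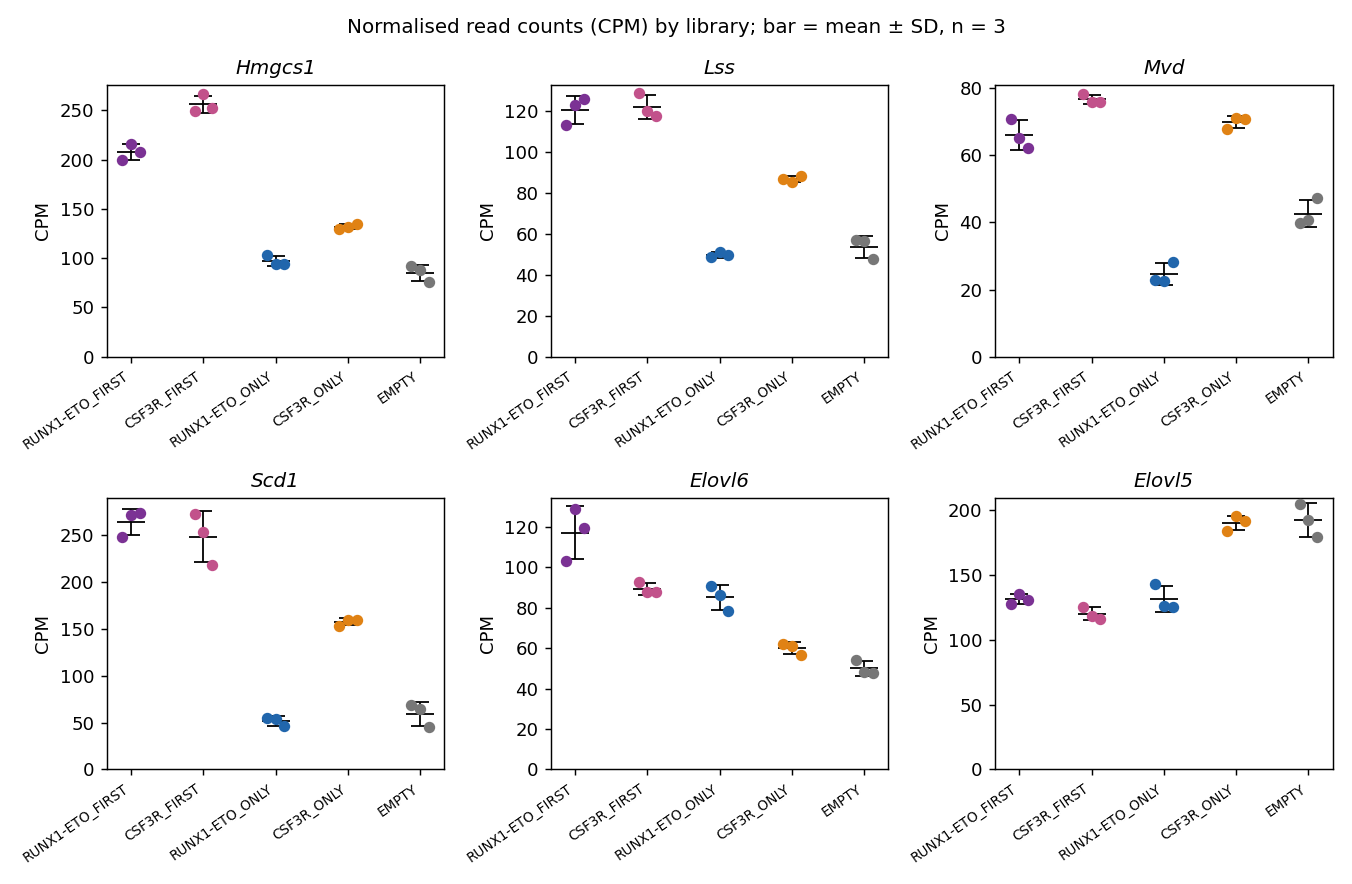
CPM of 6 genes (one panel each, axes starting at 0) in each library of the 5 groups, with points for libraries and bars for the mean ± SD of 3. Hmgcs1, Lss and Scd1 are highest in the double groups, Mvd is lowest in RUNX1-ETO_ONLY, Elovl6 is higher in the 3 groups with the fusion than in EMPTY, and Elovl5 is lower in them.

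The fusion alone was compared with EMPTY to see what RUNX1-ETO does without the receptor mutation. In RUNX1-ETO_ONLY, 5 of the 34 genes rose and 9 fell, and 38.9% of all tested genes were called, 20.8% higher and 18.1% lower. The share called, 14 of 34, was thus near that of all genes. Libraries did not overlap for 12 of the 34 genes and for 43.7% of all tested genes. Of the 18 sterol enzymes 8 fell and none rose, though Idi1 (log2 0.45, SE 0.17, adjusted p = 0.0505) rose under 8 of 16 other settings and Hmgcs1 (log2 0.19, SE 0.08, adjusted p = 0.0621) under 2 of 16. With library sizes in place of TMM factors, 1 of these settings, Idi1 and Hmgcs1 rose (adjusted p = 0.0368 and 0.0273) and Pmvk and Nsdhl no longer passed (0.0552 and 0.0907). Acss2, Fasn, Elovl6, Fads1 and Fads2 of the fatty acid groups rose, and Elovl5 was the one gene outside sterol synthesis that fell.

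Fdps fell most of the sterol enzymes, to 3.77 ± 0.582 CPM in RUNX1-ETO_ONLY against 7.61 ± 0.515 CPM in EMPTY (SD, n = 3 each), 2.02-fold lower (log2 −1.01, SE 0.15, adjusted p = 6.94e-05). Mvd, which decarboxylates mevalonate diphosphate (chromosome 8, 122433601 to 122443422, minus strand), measured 70.9, 65.2 and 62.2 in RUNX1-ETO_FIRST, 78.1, 75.9 and 75.9 in CSF3R_FIRST, 22.9, 22.4 and 28.2 in RUNX1-ETO_ONLY, 67.7, 70.95 and 70.9 in CSF3R_ONLY, and 39.9, 40.6 and 47.3 CPM in EMPTY. RUNX1-ETO_ONLY was below every other library for Mvd, 1.74-fold lower than EMPTY (log2 −0.80, SE 0.10, adjusted p = 6.16e-06). Sc5d, the lathosterol oxidase, and Dhcr7 were lower by 1.44-fold and 1.31-fold (adjusted p = 3.11e-05 and 0.000131). Mvk and Pmvk, the kinases that act on mevalonate, Tm7sf2 and Nsdhl, a sterol dehydrogenase, also fell, with log2 changes of −0.35, −0.41, −0.48 and −0.33. No regulator passed the threshold: Srebf1, Srebf2 and Insig1 had log2 changes of 0.07, 0.27 and −0.08 (adjusted p = 0.612, 0.128 and 0.616). A further fit, chosen after the data were seen, took RUNX1-ETO_ONLY, CSF3R_FIRST and EMPTY alone with the replicate number as a block. In these 3 groups libraries of the same number deviated together. Replicate 3 is length-biased in each, and the labels give the numbers no meaning, so a pairing is not established. In that fit Srebf2, Scap and Idi1 rose (adjusted p = 0.0145, 0.0271 and 0.00514), which made 8 rises and 9 falls.

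Elovl6, which lengthens saturated and monounsaturated fatty acids from palmitate (chromosome 3, 129532355 to 129638495, plus strand), was the largest rise. It measured 103, 129 and 119.69 in RUNX1-ETO_FIRST, 92.8, 87.7 and 87.7 in CSF3R_FIRST, 90.8, 86.2 and 78.4 in RUNX1-ETO_ONLY, 62.3, 61.3 and 56.4 in CSF3R_ONLY, and 54.2, 48.1 and 47.8 CPM in EMPTY. Every library with the fusion lay above every library without it, and RUNX1-ETO_ONLY was 1.7-fold above EMPTY (log2 0.77, SE 0.09, adjusted p = 5.12e-06). Elovl5, which lengthens polyunsaturated fatty acids (chromosome 9, 77917364 to 77984519, plus strand), measured 127, 135 and 131 in RUNX1-ETO_FIRST, 125, 119 and 116 in CSF3R_FIRST, 143, 126 and 125 in RUNX1-ETO_ONLY, 184, 195 and 191 in CSF3R_ONLY, and 205, 192 and 179 CPM in EMPTY. Here every library with the fusion lay below every library without it, and RUNX1-ETO_ONLY was 1.46-fold below EMPTY (log2 −0.55, SE 0.07, adjusted p = 1.67e-05). Fads1, Fads2, Acss2 and Fasn were 1.33-fold, 1.33-fold, 1.39-fold and 1.39-fold higher (adjusted p = 0.00108, 0.0125, 0.00243 and 0.0339).

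The number of calls for the fusion alone moved with the libraries used. Without the 4 length-biased libraries 7 genes rose and 18 fell. Those that newly fell were Lss, Cyp51, Ebp, Insig1, Stard4, Acly, Acaca, Scd1 and Scd2 (adjusted p = 0.0138, 0.00972, 0.0414, 0.0347, 0.0146, 8.73e-07, 0.0349, 0.000114 and 1.48e-05), and Idi1 and Srebf2 newly rose (adjusted p = 0.00849 and 0.0131). With RUNX1-ETO_ONLY and EMPTY fitted alone 3 rose and 5 fell, and with library sizes in place of TMM factors 7 rose and 7 fell. Leaving out RUNX1-ETO_ONLY replicate 1 left 9 calls, and the calls of Mvk, Pmvk, Tm7sf2, Nsdhl and Fasn ended without 1 library (adjusted p up to 0.0848, 0.114, 0.0739, 0.192 and 0.16), which was RUNX1-ETO_ONLY replicate 1 or 2 or any EMPTY library.

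Cells with both alleles were compared with EMPTY for each order. Against EMPTY, 25 of the 34 genes rose and 1 fell in RUNX1-ETO_FIRST, where 43.8% of all tested genes were called, 23.7% higher and 20.1% lower. In CSF3R_FIRST, 26 rose and 1 fell, where 53.3% were called, 26.7% higher and 26.5% lower. The median log2 change of the 34 genes was 0.596 in RUNX1-ETO_FIRST and 0.687 in CSF3R_FIRST, against medians of all tested genes of −0.021 and −0.048. Libraries did not overlap with those of EMPTY for 26 of the 34 genes in RUNX1-ETO_FIRST, against 47.9% of all tested genes, and for 28 in CSF3R_FIRST, against 53.9%. The 2 comparisons share the EMPTY libraries. Of the 18 sterol enzymes, 15 rose in RUNX1-ETO_FIRST and 17 in CSF3R_FIRST; Mvk, Tm7sf2 and Ebp, a sterol isomerase, did not pass in RUNX1-ETO_FIRST (adjusted p = 0.0502, 0.155 and 0.82) and Fdps did not pass in CSF3R_FIRST (adjusted p = 0.0985).

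Scd1, with the library values given above, was 4.45-fold higher in RUNX1-ETO_FIRST (log2 2.15, SE 0.13, adjusted p = 1.78e-09) and 4.18-fold higher in CSF3R_FIRST (log2 2.06, SE 0.13, adjusted p = 2.24e-09), with every double library above every other library. With the fusion alone its log2 change was −0.20 (adjusted p = 0.248). Hmgcs1, the HMG-CoA synthase that feeds mevalonate synthesis (chromosome 13, 119690379 to 119708260, plus strand), measured 199.98, 216 and 208 in RUNX1-ETO_FIRST, 249.3, 266 and 252 in CSF3R_FIRST, 103, 93.7 and 94.1 in RUNX1-ETO_ONLY, 129.90, 131 and 135 in CSF3R_ONLY, and 91.5, 88.03 and 75.5 CPM in EMPTY. Hmgcs1 was 2.45-fold higher in RUNX1-ETO_FIRST (log2 1.29, SE 0.08, adjusted p = 1.2e-09) and 3.01-fold higher in CSF3R_FIRST (log2 1.59, SE 0.08, adjusted p = 7.36e-11). All 3 CSF3R_FIRST libraries lay above the RUNX1-ETO_FIRST ones, which in turn lay above every single-allele and EMPTY library.

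Lss, which closes squalene epoxide to lanosterol (chromosome 10, 76531588 to 76557138, plus strand), measured 113, 123 and 126 in RUNX1-ETO_FIRST, 128, 119.72 and 117 in CSF3R_FIRST, 48.5, 51.1 and 49.4 in RUNX1-ETO_ONLY, 86.8, 84.97 and 87.999 in CSF3R_ONLY, and 56.8, 56.2 and 47.4 CPM in EMPTY. The double groups overlapped each other and lay above all others, 2.25-fold over EMPTY in RUNX1-ETO_FIRST (log2 1.17, SE 0.08, adjusted p = 5.16e-09) and 2.28-fold in CSF3R_FIRST (log2 1.19, SE 0.08, adjusted p = 3.24e-09). Msmo1, the methylsterol oxidase (chromosome 8, 64718139 to 64733792, minus strand), measured 189.77, 157 and 159.54 in RUNX1-ETO_FIRST, 208, 207 and 240.50 in CSF3R_FIRST, 83.5, 76.3 and 85.3 in RUNX1-ETO_ONLY, 126, 123 and 126 in CSF3R_ONLY, and 72.1, 73.5 and 98.4 CPM in EMPTY. It was 2.07-fold higher in RUNX1-ETO_FIRST (log2 1.05, SE 0.11, adjusted p = 1.47e-06) and 2.68-fold higher in CSF3R_FIRST (log2 1.42, SE 0.11, adjusted p = 3.35e-08), with EMPTY replicate 3 above the other EMPTY libraries. Fdft1, the squalene synthase (chromosome 14, 63145150 to 63179578, minus strand), measured 161, 133 and 136 in RUNX1-ETO_FIRST, 177, 171 and 179 in CSF3R_FIRST, 67.1, 63.5 and 80.9 in RUNX1-ETO_ONLY, 126, 116 and 124 in CSF3R_ONLY, and 63.7, 71.4 and 82.3 CPM in EMPTY. Fdft1 rose 1.98-fold in RUNX1-ETO_FIRST (log2 0.99, SE 0.11, adjusted p = 1.67e-06) and 2.42-fold in CSF3R_FIRST (log2 1.28, SE 0.11, adjusted p = 6.29e-08), and in neither did it overlap with EMPTY.

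Elovl6 was 2.34-fold higher in RUNX1-ETO_FIRST (log2 1.23, SE 0.09, adjusted p = 1.74e-08) and 1.79-fold higher in CSF3R_FIRST (log2 0.84, SE 0.09, adjusted p = 1.17e-06). Elovl5 was the one gene of the 34 that fell, by 1.47-fold in RUNX1-ETO_FIRST and 1.6-fold in CSF3R_FIRST (adjusted p = 1.31e-05 and 1.05e-06). Of the 4 fatty acid synthesis enzymes, Fasn alone passed and only in RUNX1-ETO_FIRST (log2 0.70, SE 0.17, adjusted p = 0.00277), at 1088 ± 154 CPM with the fusion first, 862 ± 153 with the receptor first and 671 ± 136 in EMPTY (SD, n = 3 each); its difference between the 2 orders was not past the threshold (adjusted p = 0.181). In the fit chosen after the data were seen, with the replicate number as a block in RUNX1-ETO_ONLY, CSF3R_FIRST and EMPTY alone, Fasn, Acly and Insig2 also rose in CSF3R_FIRST (adjusted p = 0.00049, 0.00611 and 0.031). This made 29 rises and 1 fall. Srebf2 rose by 0.72 and 0.76, Srebf1 by 0.60 and 0.56, and Insig1 by 0.78 and 0.86 on the log2 scale in RUNX1-ETO_FIRST and CSF3R_FIRST. Without the 4 length-biased libraries, 28 genes rose and 1 fell in RUNX1-ETO_FIRST, and 29 rose and 3 fell in CSF3R_FIRST. Mvk, Tm7sf2 and Acss2 then newly rose in RUNX1-ETO_FIRST (adjusted p = 0.00239, 0.00328 and 0.00972). In CSF3R_FIRST Acly, Fasn and Acss2 newly rose (adjusted p = 0.00814, 0.000161 and 0.0255), and Scap and Acaca newly fell (adjusted p = 0.00281 and 0.00331). Leaving out 1 library ended the calls of Fdps, Nsdhl and Scd2 in RUNX1-ETO_FIRST (adjusted p up to 0.0999, 0.0522 and 0.0987; RUNX1-ETO_FIRST replicate 1, 2 or 3 or EMPTY replicate 3) and that of Scd2 in CSF3R_FIRST (adjusted p = 0.0572 without CSF3R_FIRST replicate 1).

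**Figure D3:**
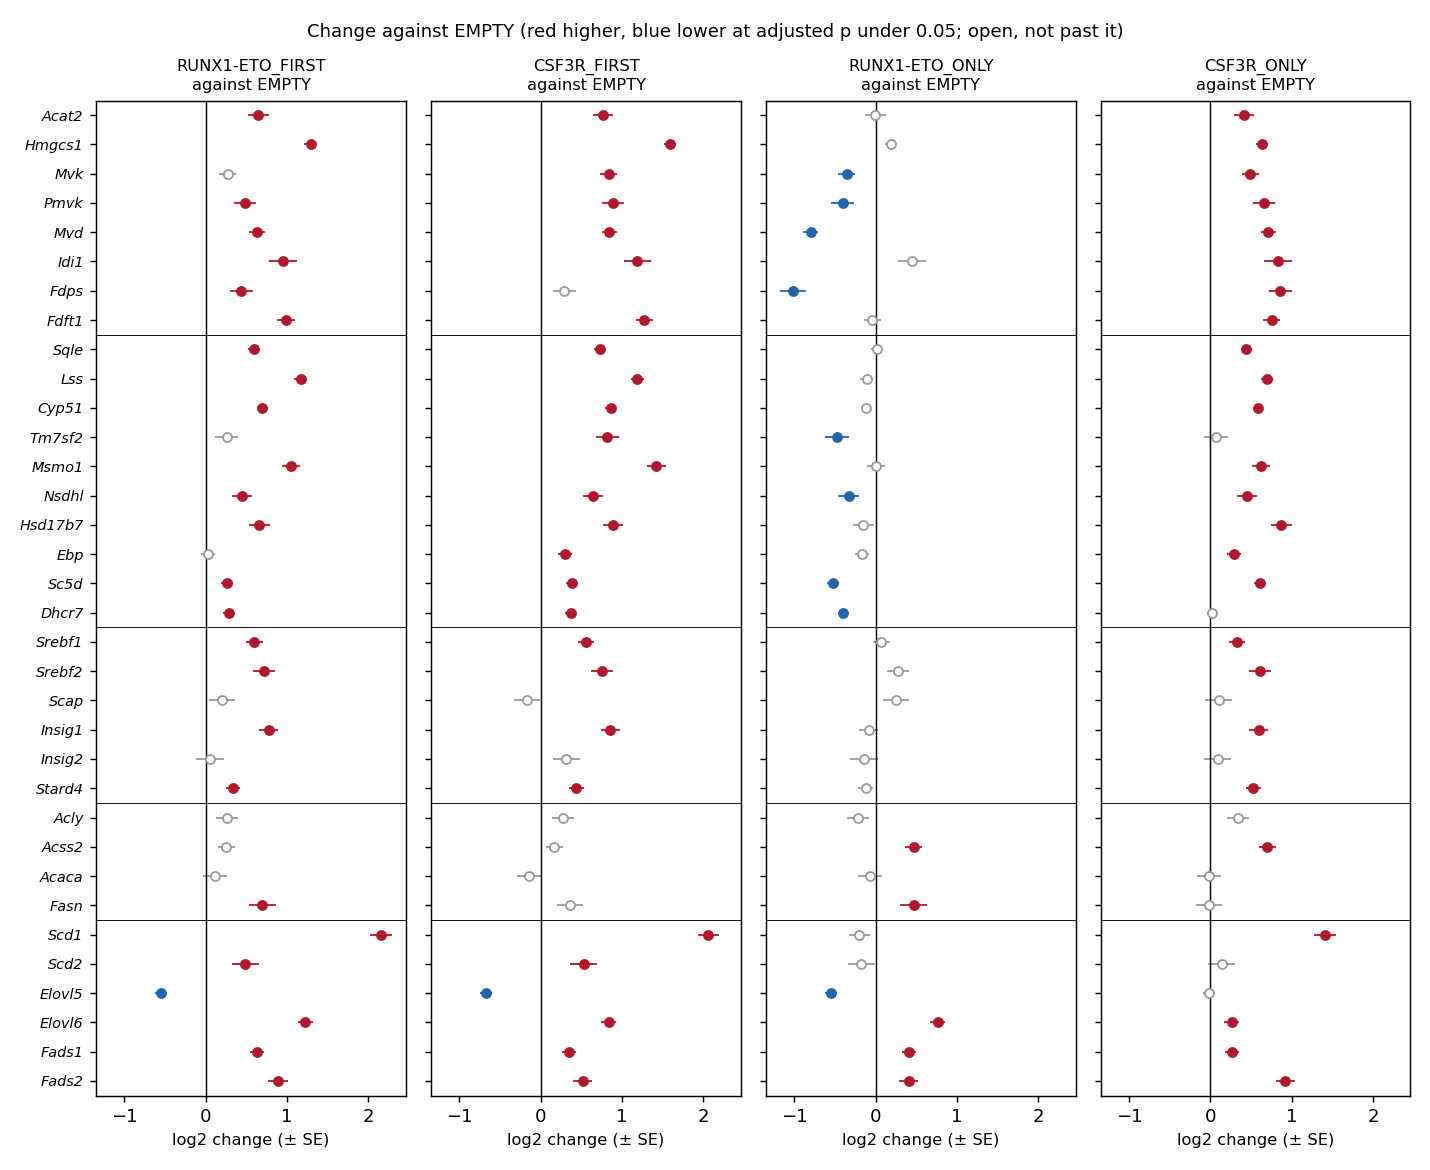
Log2 change against EMPTY of each of the 34 genes (rows, grouped by role) in the 4 other groups, with SE as bars; red points rose, blue points fell and open points were not past an adjusted p of 0.05. Rises number 25, 26, 5 and 25 from left to right and falls 1, 1, 9 and 0, and Scd1 reaches 2.15 in RUNX1-ETO_FIRST.

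The double groups were next compared with the cells that carried their first allele alone. RUNX1-ETO_FIRST had 26 of the 34 genes higher than RUNX1-ETO_ONLY and none lower, against 26.2% of all tested genes called, 15.9% higher and 10.3% lower; libraries did not overlap for 29 of the 34 and for 41.9% of all tested genes. All 8 enzymes up to squalene and 9 of the 10 after it rose, Ebp being the exception (log2 0.19, SE 0.09, adjusted p = 0.121). Scd1 was 5.12-fold, Fdps 2.74-fold, Mvd 2.7-fold and Lss 2.43-fold higher (adjusted p = 3.03e-09, 2.65e-06, 2.07e-08 and 7.04e-09). Elovl5 was not past the threshold (adjusted p = 0.987), at 131 ± 3.79 CPM in RUNX1-ETO_FIRST and 131 ± 9.86 CPM in RUNX1-ETO_ONLY (SD, n = 3 each). Without the 4 length-biased libraries 30 genes were higher and 1, Acss2, lower (adjusted p = 0.00672). The calls of Idi1, Srebf2 and Acly ended without RUNX1-ETO_FIRST replicate 2 or 3 or RUNX1-ETO_ONLY replicate 2 or 3 (adjusted p up to 0.134, 0.0992 and 0.0662).

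CSF3R_FIRST had 12 genes higher and 5 lower than CSF3R_ONLY, against 44.7% of all tested genes called, 22.2% higher and 22.5% lower. Of the 34 genes 50% were called, 35.3% higher and 14.7% lower. The share called in either direction was thus near that of all genes. Libraries did not overlap for 23 of the 34 and for 61.3% of all tested genes, again a near share. The higher genes were mainly sterol enzymes, 10 of 18, among them Hmgcs1 (1.94-fold; log2 0.96, SE 0.08, adjusted p = 4.49e-08), Msmo1 (1.75-fold) and Tm7sf2 (1.68-fold), with Scd1 (1.58-fold) and Elovl6 (1.49-fold). The lower genes were Fdps, Sc5d, Elovl5, Fads2 and Acss2, with log2 changes of −0.57, −0.22, −0.66, −0.40 and −0.53. No regulator passed with all libraries. Without the 4 length-biased libraries 21 genes were higher and 5 lower. Insig1, Srebf1 and Srebf2 were then among the higher genes (log2 0.33, 0.34 and 0.26, adjusted p = 6.1e-07, 4.15e-07 and 2.03e-05). The calls of Acat2, Mvk, Sc5d and Fads2 ended without CSF3R_FIRST replicate 1 or 3 or any CSF3R_ONLY library (adjusted p up to 0.0882, 0.0604, 0.22 and 0.0921).

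The order of the 2 alleles, which is the question of the study, was examined in RUNX1-ETO_FIRST against CSF3R_FIRST. With the fusion first, 3 of the 34 genes were higher and 6 lower, where 18.2% of all tested genes were called, 7.18% higher and 11.1% lower. Libraries of the 2 orders did not overlap for 17 of the 34 genes and for 36.1% of all tested genes. The lower genes were all sterol enzymes, Hmgcs1, Mvk, Pmvk, Tm7sf2, Msmo1 and Ebp, and the higher ones were all enzymes that lengthen or desaturate fatty acids, Elovl6, Fads1 and Fads2. None of the 6 regulators and carriers was past the threshold, and Scd1, the gene most raised in both groups, differed by 0.09 on the log2 scale (SE 0.13, adjusted p = 0.681). Scap was higher with the fusion first once the 4 length-biased libraries were left out (log2 0.25, adjusted p = 0.00289).

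Mvk, the mevalonate kinase (chromosome 5, 114444269 to 114460591, plus strand), measured 36.2, 31.9 and 32.5 in RUNX1-ETO_FIRST, 47.8, 49.5 and 51.7 in CSF3R_FIRST, 19.3, 22.1 and 24.002 in RUNX1-ETO_ONLY, 39.8, 36.4 and 40.9 in CSF3R_ONLY, and 25.2, 25.9 and 32.4 CPM in EMPTY. The 2 orders did not overlap, and RUNX1-ETO_FIRST was 1.48-fold lower (log2 −0.57, SE 0.10, adjusted p = 0.00126). Tm7sf2, a sterol reductase (chromosome 19, 6062821 to 6068373, minus strand), measured 16.5, 14.7 and 15.4 in RUNX1-ETO_FIRST, 22.8, 23.5 and 22.4 in CSF3R_FIRST, 8.61, 8.83 and 10.5 in RUNX1-ETO_ONLY, 12.7, 14.8 and 13.4 in CSF3R_ONLY, and 10.8, 11.4 and 16.8 CPM in EMPTY. It was 1.47-fold lower with the fusion first (log2 −0.56, SE 0.14, adjusted p = 0.0102); RUNX1-ETO_FIRST overlapped with EMPTY, and CSF3R_FIRST lay above every other library. Pmvk, which follows Mvk in the pathway (chromosome 3, 89454541 to 89469013, plus strand), measured 28.2, 26.8 and 26.4 in RUNX1-ETO_FIRST, 30.4, 37.4 and 39.7 in CSF3R_FIRST, 13.5, 13.5 and 16.9 in RUNX1-ETO_ONLY, 31.6, 30.3 and 29.8 in CSF3R_ONLY, and 16.8, 17.6 and 23.98 CPM in EMPTY. It was 1.32-fold lower with the fusion first (log2 −0.40, SE 0.13, adjusted p = 0.0475), again without overlap between the orders. Elovl6 was 1.31-fold higher with the fusion first (log2 0.39, SE 0.09, adjusted p = 0.00605). Hmgcs1, Msmo1 and Ebp were lower by 1.23-fold, 1.29-fold and 1.21-fold, and Fads1 and Fads2 higher by 1.21-fold and 1.29-fold (adjusted p = 0.0108, 0.03, 0.0406, 0.0336 and 0.0394). In the same comparison 8 of the 10 markers of dividing cells were higher and none lower, and all 7 mast cell markers and 6 of the 7 neutrophil markers were lower with the fusion first, by medians of log2 −1.11 and −1.15.

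Most of these differences between the orders were small and close to the threshold. Leaving out RUNX1-ETO_FIRST replicate 2 or 3 or CSF3R_FIRST replicate 3 left 4 calls each, and the calls of Pmvk, Msmo1, Ebp, Fads1 and Fads2 ended without 1 library (adjusted p up to 0.141, 0.122, 0.125, 0.203 and 0.231), each of the 6 libraries ending at least 1. With library sizes in place of TMM factors 3 genes were higher and 2 lower, the call of Hmgcs1 also ending (adjusted p = 0.117), with median-ratio size factors 1 was higher and 7 lower, and without the 4 length-biased libraries 6 were higher and 13 lower.

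**Figure D4:**
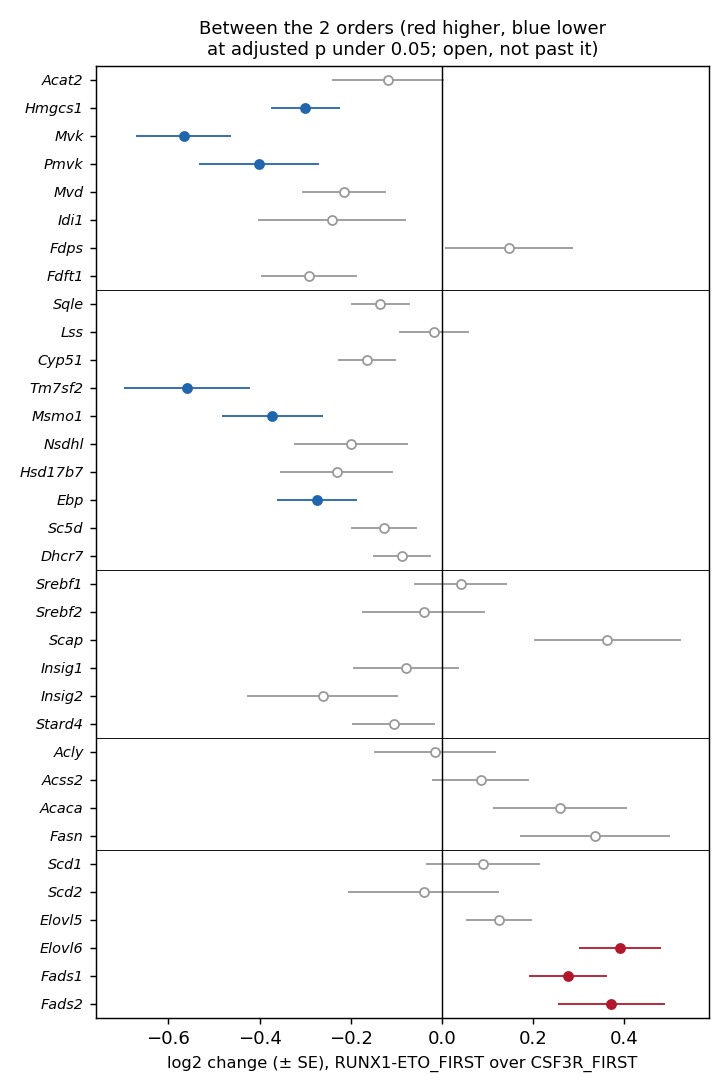
Log2 change between RUNX1-ETO_FIRST and CSF3R_FIRST for each of the 34 genes, grouped by role, with SE as bars; positive values are higher with the fusion first. The 6 blue points are sterol enzymes, from −0.57 (Mvk) to −0.27 (Ebp), and the 3 red points are Elovl6, Fads1 and Fads2.

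Additivity was tested on log2 values, by taking the change of a double group over EMPTY and subtracting the change of each single allele over EMPTY, so that 0 means that the double change equals the sum of the single changes. For RUNX1-ETO_FIRST 6 of the 34 genes lay above the sum and 1 below it, where 15.7% of all tested genes were called, 6.34% above and 9.39% below. For CSF3R_FIRST 14 lay above and 2 below, where 22.8% were called, 10.3% above and 12.4% below. Of the 18 sterol enzymes, 5 were above the sum in RUNX1-ETO_FIRST and 13 in CSF3R_FIRST, and none was below it in either; whether the 2 counts differ was not tested, and the 2 tests share the single groups and EMPTY. The median over the 34 was 0.205 for RUNX1-ETO_FIRST and 0.328 for CSF3R_FIRST, against −0.023 and −0.039 for all tested genes.

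Mvd, lower with the fusion alone and higher with the receptor alone, exceeded the sum by 0.72 in RUNX1-ETO_FIRST and 0.93 in CSF3R_FIRST (SE 0.13 and 0.13; adjusted p = 0.00142 and 0.000115). Dhcr7, lower with the fusion alone, exceeded it by 0.65 and 0.74 (adjusted p = 0.000102 and 2.65e-05), and Tm7sf2 by 0.67 and 1.23. Scd1 exceeded it by 0.95 and 0.86 (adjusted p = 0.0018 and 0.0028), so that its double levels were above the product of the single folds. Acss2 went the other way. It measured 24.4, 22.4 and 21.8 in RUNX1-ETO_FIRST, 22.6, 19.5 and 22.6 in CSF3R_FIRST, 26.9, 27.9 and 24.8 in RUNX1-ETO_ONLY, 29.5, 34.1 and 29.7 in CSF3R_ONLY, and 17.7, 17.6 and 22.2 CPM in EMPTY. It was higher than EMPTY in both single groups and not past the threshold in either double group (adjusted p = 0.0671 and 0.2). Without the 4 length-biased libraries, however, Acss2 rose in RUNX1-ETO_FIRST and CSF3R_FIRST (log2 0.30 and 0.26, adjusted p = 0.00972 and 0.0255). Its departures from the sum were log2 −0.91 in RUNX1-ETO_FIRST and −0.997 in CSF3R_FIRST (adjusted p = 0.000525 and 0.00019). Fads2 was below it in CSF3R_FIRST (log2 −0.81, SE 0.17, adjusted p = 0.00233). No regulator passed in either test with all libraries. Insig1 did exceed the sum without the 4 length-biased libraries, by 0.36 in RUNX1-ETO_FIRST and 0.48 in CSF3R_FIRST (adjusted p = 0.000418 and 4.41e-06). Srebf1 then exceeded it by 0.33 and 0.38 (adjusted p = 0.000897 and 1e-04), and Scap lay below it in CSF3R_FIRST (log2 −0.23, adjusted p = 0.0377). Without the 4 length-biased libraries 16 genes lay above the sum and 2 below it in RUNX1-ETO_FIRST, and 18 and 3 in CSF3R_FIRST, where library sizes in place of TMM factors gave 9 and 3; leaving out EMPTY replicate 3 alone gave 13 calls in RUNX1-ETO_FIRST. The call of Tm7sf2 in RUNX1-ETO_FIRST and those of Pmvk, Sqle, Nsdhl and Sc5d in CSF3R_FIRST ended without 1 library (adjusted p up to 0.0908, 0.0683, 0.0963, 0.112 and 0.0936); for Tm7sf2 these were RUNX1-ETO_FIRST replicate 1 or 3, RUNX1-ETO_ONLY replicate 1 or 2 and CSF3R_ONLY replicate 1 or 3, and for the others all libraries of the 4 groups but EMPTY replicate 3.

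**Figure D5:**
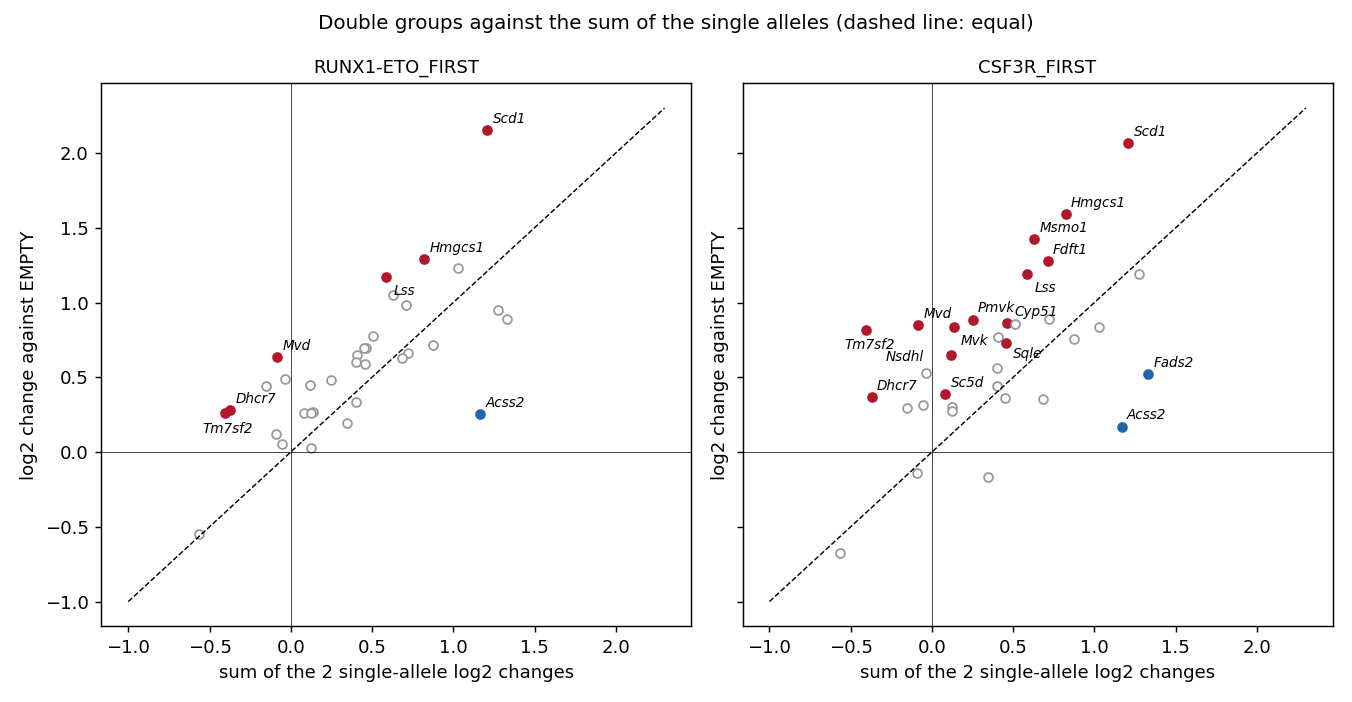
Log2 change against EMPTY in RUNX1-ETO_FIRST (left) and CSF3R_FIRST (right), against the sum of the log2 changes of the 2 single-allele groups; each point is 1 of the 34 genes and the dashed line marks equality. Filled points differ from the line at an adjusted p under 0.05: 6 above and 1 below on the left, 14 above and 2 below on the right, with Acss2 below in both.

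Neighbouring genes of the pathways, from lists set beside the 34, were read in the same way. Against EMPTY, the shares of all tested genes that rose and fell were 23.7% and 20.1% in RUNX1-ETO_FIRST, 26.7% and 26.5% in CSF3R_FIRST, 20.8% and 18.1% in RUNX1-ETO_ONLY, and 19.9% and 13% in CSF3R_ONLY. Of 12 further genes of sterol synthesis and uptake, 6 rose and 2 fell in RUNX1-ETO_FIRST, 5 rose and 3 fell in CSF3R_FIRST, 2 rose and 2 fell in RUNX1-ETO_ONLY, and 4 rose and none fell in CSF3R_ONLY. Their median log2 changes were 0.383, 0.286, 0.0708 and 0.226 in these groups, where all tested genes had −0.021, −0.048, 0.011 and 0. Por, which passes electrons to Cyp51 and Sqle among many enzymes, averaged 356 ± 16.5, 341 ± 20.6, 358 ± 11.5 and 176 ± 3.58 CPM in them and 139 ± 2.34 CPM in EMPTY (SD, n = 3 each), and its rise passed in all 4. The abundant Cyb5r3, a reductase of cytochrome b5, passed in none of the 4 comparisons with EMPTY, but in CSF3R_FIRST it rose without the 4 length-biased libraries (adjusted p = 0.00547).

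Of 12 tested genes of sterol export, storage and oxysterol response, 8 rose in RUNX1-ETO_FIRST and 9 in CSF3R_FIRST, against 23.7% and 26.7% of all tested genes, and none fell; 6 rose and 2 fell in RUNX1-ETO_ONLY, and 3 rose and 1 fell in CSF3R_ONLY, against 20.8% and 19.9% of all tested genes that rose. The median log2 change of the 12 was 0.749 in RUNX1-ETO_FIRST and 1.02 in CSF3R_FIRST. Abcg1, a sterol exporter, averaged 91.95 ± 1.42, 86.3 ± 8.26, 110.28 ± 5.54 and 22.7 ± 0.767 CPM in RUNX1-ETO_FIRST, CSF3R_FIRST, RUNX1-ETO_ONLY and CSF3R_ONLY and 27.3 ± 1.72 CPM in EMPTY, and so was high in the groups with the fusion and low in the others. Mylip, a ubiquitin ligase, and Lpcat3, which places polyunsaturated fatty acids in phospholipids, rose in all 4 groups, with log2 changes of 1.37, 1.80, 1.54 and 0.28 for Mylip and 1.44, 2.04, 0.30 and 0.58 for Lpcat3. Fitted with only the groups compared, the rise of Mylip in CSF3R_ONLY and that of Lpcat3 in RUNX1-ETO_ONLY no longer passed (adjusted p = 0.0949 and 0.0808). Ch25h, which makes an oxysterol from cholesterol, had 225 counts over the 3 RUNX1-ETO_FIRST libraries, 105 in CSF3R_FIRST, 1 in RUNX1-ETO_ONLY, 2 in CSF3R_ONLY and 2 in EMPTY. Scaled to library size, the ratio of RUNX1-ETO_FIRST to EMPTY was 111 (exact 95% counting interval 30.3 to 919) and that of CSF3R_FIRST to EMPTY was 55.4 (15 to 464); the interval covers counting error only. The sterol-sensing receptor Nr1h2 and the oxysterol-binding Osbp were abundant and passed in no comparison with EMPTY, though Nr1h2 rose in CSF3R_FIRST and CSF3R_ONLY without the 4 length-biased libraries (adjusted p = 4.53e-07 and 1.52e-06).

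Of 15 tested further genes of fatty acid synthesis and elongation, 6 rose and 1 fell in RUNX1-ETO_FIRST, 7 rose and 3 fell in CSF3R_FIRST, 3 rose and 3 fell in RUNX1-ETO_ONLY, and 3 rose and 1 fell in CSF3R_ONLY. Of all tested genes, 43.8%, 53.3%, 38.9% and 32.9% were called in either direction in this order of groups. The median log2 changes were 0.307, 0.441, 0.0874 and 0.0452 for the 15 genes. Idh1, which makes cytosolic NADPH, averaged 543 ± 9.31, 619.98 ± 28.1 and 469.95 ± 17.2 CPM in the 3 groups with the fusion, 168 ± 2.06 in CSF3R_ONLY and 173 ± 16.9 in EMPTY (SD, n = 3 each). Hacd2, a dehydratase of elongation, fell in the groups with the fusion, with log2 changes of −0.74, −0.72 and −0.86. Of 16 tested genes of fatty acid oxidation, 7 rose and 4 fell in RUNX1-ETO_FIRST, 5 rose and 5 fell in CSF3R_FIRST, 4 rose and 1 fell in RUNX1-ETO_ONLY, and 2 rose and 2 fell in CSF3R_ONLY, beside the same shares of all tested genes. The medians were 0.147, 0.132, 0.125 and −0.0812. The mitochondrial trifunctional subunits Hadha and Hadhb passed in no comparison with EMPTY, but with library sizes in place of TMM factors both rose in RUNX1-ETO_ONLY (adjusted p = 0.02 and 0.0259) and fell in CSF3R_ONLY (adjusted p = 0.0453 and 0.0488).

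Of 14 tested genes of fatty acid activation, uptake and storage, 4 rose and 4 fell in RUNX1-ETO_FIRST, 5 rose and 4 fell in CSF3R_FIRST, 1 rose and 5 fell in RUNX1-ETO_ONLY, and 5 rose and 1 fell in CSF3R_ONLY, where 43.8%, 53.3%, 38.9% and 32.9% of all tested genes were called. The medians were −0.0752, −0.186, −0.148 and 0.0867. The triglyceride-forming Dgat2 averaged 24.6 ± 0.913, 35.6 ± 1.89 and 13.5 ± 0.527 CPM in the 3 groups with the fusion, 235 ± 3.92 in CSF3R_ONLY and 85.5 ± 3.43 in EMPTY. Dgat1, an enzyme of the same function, averaged 39.5 ± 2.93, 38.3 ± 3.8, 25.1 ± 2.28, 160.12 ± 3.75 and 57.4 ± 4.22 CPM in the same groups. Both were thus lower than EMPTY in every group with the fusion and higher with the receptor alone, and each of these changes passed (Dgat2 log2 −2.66, SE 0.07, adjusted p = 3.95e-13 in RUNX1-ETO_ONLY and log2 1.46, SE 0.07, adjusted p = 9.62e-11 in CSF3R_ONLY). Acsl1, an acyl-CoA synthetase, fell in the groups with the fusion, with log2 changes of −1.30, −1.17 and −1.05, and Lpl, the lipoprotein lipase, averaged 8.005 ± 1.31, 4.4 ± 0.478 and 6.45 ± 1.44 CPM in them against 0.227 ± 0.11 CPM in EMPTY.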

How the data were processed

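The authors deposited 1 table of raw read counts per gene symbol, with a column for each of the 15 libraries. Per the labels' protocols, column-purified, DNase-treated total RNA went into strand-specific mRNA libraries. Trimmomatic, STAR, DESeq2 and the build mm10 appear, without versions, in the submitters' processing notes; for the counting program, annotation, strand setting and treatment of shared reads nothing is given in the sources used here, and reads of overlapping or near-identical genes may have been split or lost. The 1 entry naming no gene (0.0179% to 0.0305% of counts) was left out.

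Genes with at least 10 counts in at least 3 libraries were fitted in edgeR 4.0.16 (R 4.3.3) with TMM factors, 5 group means and 10 residual degrees of freedom, by robust quasi-likelihood F tests on 9 comparisons, each adjusted by Benjamini and Hochberg over 13199 genes. CPM used the TMM factors, and log2 CPM a prior count of 2. The fit was also run on simulated counts drawn independently for each library. These held no length bias, outlying library or deviation shared between groups, so that run does not show how the fit behaves under them. Total counts were 17942960 to 18138097 in RUNX1-ETO_FIRST, 17919315 to 18068091 in CSF3R_FIRST, 17834284 to 18178292 in RUNX1-ETO_ONLY, 17482995 to 17653679 in CSF3R_ONLY and 17007437 to 17391045 in EMPTY. Libraries of the same replicate number deviated from their group means together (all 3 correlations above 0.1) between RUNX1-ETO_ONLY, CSF3R_FIRST and EMPTY, in each of which replicate 3 is length-biased, with correlations of 0.284 to 0.825; among all 30 same-number pairs 13 were above 0.1, down to −0.622, and the labels give the numbers no meaning. No 2 replicates agreed within sampling noise (chi-square per degree of freedom 2.46 to 74.7).

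The 34 genes and all further lists were chosen with earlier results of these data known. Genes given with every library's value were Srebf1, Srebf2, Insig1 and Insig2 and, in each comparison with EMPTY and between the orders, the 4 called genes that changed most; Acss2 was added after its values were seen. In each further list at most 3 genes were named for the size of a change past the threshold and at most 2 for abundance without passing it. Some genes of these lists are not reported here by name. Gene positions are from GENCODE M21 (mm10), and promoter windows from RefSeq (GRCm38.p6). Alternatives were other scaling, no or another count filter, DESeq2 1.42.0, limma-voom (limma 3.58.1), a replicate block, fits of the compared groups alone, and fits without 1 library or without the 4 length-biased libraries.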

Additional observations from a re-analysis of the deposited data

Results flagged for a closer look

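A double group differed from the sum of the 2 single-allele changes, by the test of additivity itself, for 23 pairs of a gene and a double group. As log2 departures from the sum, the values in RUNX1-ETO_FIRST were 0.47 for Hmgcs1, 0.72 for Mvd, 0.58 for Lss, 0.67 for Tm7sf2, 0.65 for Dhcr7, 0.95 for Scd1 and −0.91 for Acss2. Among the steps up to squalene in CSF3R_FIRST they were 0.77 for Hmgcs1, 0.70 for Mvk, 0.64 for Pmvk, 0.93 for Mvd and 0.57 for Fdft1. For the later sterol steps in CSF3R_FIRST they were 0.27 for Sqle, 0.60 for Lss, 0.40 for Cyp51, 1.23 for Tm7sf2, 0.80 for Msmo1, 0.53 for Nsdhl, 0.31 for Sc5d and 0.74 for Dhcr7. For the fatty acid genes in CSF3R_FIRST they were 0.86 for Scd1, −0.81 for Fads2 and −0.997 for Acss2. Groups of 3 libraries are too small for the check of single outlying samples, which was not run.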

How the results depend on the processing

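None of the 167 called changes of the 34 genes reversed its direction under any alternative, while 48 of the 139 that were not past the threshold changed sign under at least 1. Over the 34 genes, 9 comparisons and all settings, 4694 results stayed on their side of the threshold, 200 newly passed it and 172 no longer passed. For the further lists, compared with EMPTY, these were 3951, 145 and 169, with no called change reversed. Apart from the fits without 1 library, given further below, counts of called genes moved by more than 1.5 times in these cases, with the number reported first. The order comparison had 9, against 5 (3 higher, 2 lower) with library sizes alone, 18 (6 and 12) with limma-voom and 19 (6 and 13) without the 4 length-biased libraries. RUNX1-ETO_ONLY against EMPTY had 14, against 25 (7 and 18) without the 4 libraries and 8 (3 and 5) with only these groups fitted. CSF3R_FIRST against CSF3R_ONLY had 17, against 26 (21 and 5) without the 4 libraries. Additivity in RUNX1-ETO_FIRST had 7, against 15 (13 and 2) with limma-voom and 18 (16 and 2) without the 4 libraries. The cause of these moves was not tested.

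Leaving out 1 library at a time gave 4 to 7 calls for the order (4 on omitting CSF3R_FIRST replicate 3 or RUNX1-ETO_FIRST replicate 2 or 3), 9 to 16 for RUNX1-ETO_ONLY (9 without RUNX1-ETO_ONLY replicate 1), 21 to 24 for CSF3R_ONLY, 24 to 27 for RUNX1-ETO_FIRST and 26 to 31 for CSF3R_FIRST, each against EMPTY. It gave 23 to 26 for RUNX1-ETO_FIRST against RUNX1-ETO_ONLY, 14 to 18 for CSF3R_FIRST against CSF3R_ONLY, and 6 to 13 and 12 to 20 for additivity in RUNX1-ETO_FIRST and CSF3R_FIRST (13 without EMPTY replicate 3).

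Over all tested genes, the order comparison called 2407, against 4302 with limma-voom and 4391 without the 4 libraries; additivity in RUNX1-ETO_FIRST called 2076, against 3482 and 3446; and RUNX1-ETO_ONLY called 5132, against 3402 with only its groups fitted. Library sizes alone shifted the median log2 change of all genes to −0.19 for CSF3R_FIRST against EMPTY, −0.14 for RUNX1-ETO_FIRST against RUNX1-ETO_ONLY and −0.2 for additivity in CSF3R_FIRST. With the replicate number as a block, 9, 15, 26, 27, 28, 26, 20, 7 and 16 genes were called for the order, RUNX1-ETO_ONLY, CSF3R_ONLY, RUNX1-ETO_FIRST, CSF3R_FIRST, RUNX1-ETO_FIRST against RUNX1-ETO_ONLY, CSF3R_FIRST against CSF3R_ONLY and additivity in RUNX1-ETO_FIRST and CSF3R_FIRST, and 7 of 306 tests crossed the threshold, all newly passing. Blocked in the 3 groups paired by number alone, an alternative chosen after seeing the data, RUNX1-ETO_ONLY had 17 calls and CSF3R_FIRST 30, and 6 of 68 tests newly passed. Depth limits Fdps, with 61 to 265 counts, Idi1, with 152 to 547, and Tm7sf2, with 169 to 398.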
